A study of Homo sapiens with 6 samples.

Results

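The enzymes that make and remove PI(3,4,5)P3 were followed in bladder cancer cells through 9 genes, which stand on 10 rows of a table of 57905. They are the 5-phosphatases *INPP5D* and *INPPL1*, the 4-phosphatases *INPP4A* and *INPP4B*, the catalytic subunits *PIK3CA* and *PIK3CB*, and the regulatory subunits *PIK3R1*, *PIK3R2* and *PIK3R3*. The rows were taken by gene name, and the name *PIK3R2* stands on 2 of them. *INPP5D* was chosen by its fall in the comparison reported here, so its change is described with no test. The other 8 names were picked as its relatives and as the kinases it opposes. Of the 9 names, 8 were expressed highly enough to enter the comparison, among 14178 genes in all, and *PIK3R2* was not.

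The cells were RT4, an established line grown from a papillary bladder tumour that had not invaded muscle. Scramble cells received a universal negative control siRNA, and LEADR-KD cells an siRNA against *LEADR*, the spliced transcript of *MIR205HG*, the host gene of miR-205. Each siRNA was used at 100 pmol for 48 h in cells labelled wild type, and poly(A) RNA was sequenced in 3 libraries per siRNA. Each group thus rests on a single siRNA and a single cell line. The study's methods speak of biological replicates, and the labels do not say how they were cultured. The edgeR p-values set the difference between groups against the spread between libraries of the same group, whatever that spread holds.

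Class I PI3Ks phosphorylate PI(4,5)P2 at the plasma membrane to PI(3,4,5)P3, which recruits AKT and other proteins with a pleckstrin homology domain. SHIP1 and SHIP2, the products of *INPP5D* and *INPPL1*, remove the 5-phosphate and leave PI(3,4)P2, from which INPP4A and INPP4B then remove the 4-phosphate. SHIP1 is best known from blood cells, and SHIP2 is broadly expressed. Mutated *PIK3CA* is common in papillary bladder tumours, but no variant was examined here.

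Library totals ranged from 15706033 to 18960822 counts. The targeted gene, *MIR205HG*, went from 22.7 ± 6.64 to 8.13 ± 3.08 CPM (counts scaled to library size by TMM; mean ± SD, n = 3), a log2 fold change of -1.47 (SE 0.26, edgeR adjusted p = 0.00180). The share of mitochondrial counts was 11.9% for Scramble 1 and 10.8% for LEADR-KD 1, whereas the other 4 libraries had 3.06 to 5.73%. Of 12 urothelial and epithelial markers 11 were high enough to test, and *KRT20* had at most 19 counts in a library. Their summed level was 3723 to 4212 CPM in Scramble and 4514 to 5031 CPM in LEADR-KD, and the part of this shift in the results below was not tested. The markers were split, and *CDH1* alone went from a mean of 315 to 680 CPM. *CDH1*, *KRT18* and *UPK1B* were called higher (27.3%, beside 12.2% of all genes). *FOXA1* was called lower (9.09%, beside 12.1%), and 7 were not called. Of 12 leukocyte markers, *CD3E*, *CD3D* and *SPI1* had no count in any library and *PTPRC* had 4 counts in all. Their summed level was 8.67 to 12.4 CPM in Scramble and 10.9 to 13.5 CPM in LEADR-KD, nearly all of it from *ITGAM* and *CORO1A*. Only these 2 were high enough to test. *CORO1A* was called higher (50%, beside 12.2% of all genes), from a mean of 3.21 to 5.88 CPM (log2 fold change 0.87, edgeR adjusted p = 0.0118). *ITGAM* was not called (-0.18, edgeR adjusted p = 0.694).

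Because the groups differ by a small RNA and the targeted gene hosts another, the sequences that could pair with the members are shown first. The paper states, from earlier work, that this siRNA leaves the unspliced RNA that yields miR-205 unaffected. The siRNA strand is given as the study lists it, followed by its complement and by hsa-miR-205-5p from RefSeq (GRCh38.p14 table). Capitals mark the seed, bases 2 to 8 from the 5′ end.

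siRNA as listed: aACUGGGUgcuuuauauagga
siRNA complement: uCCUAUAUaaagcacccaguu
hsa-miR-205-5p: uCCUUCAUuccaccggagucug

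Seed matches were searched in annotated 3′UTRs (GENCODE v44lift37, GRCh37), on the transcript's own strand. For the listed strand the letters were ACCCAGTA (8 bases). A 7-base match lacks its first or its last letter and a 6-base match lacks both, so each longer match contains the shorter one. *INPP5D* held only the 6-base match, at 2 places, each in 3 annotated transcripts. They are printed with the match in capitals.

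INPP5D, chr2:234115609-234115634, plus strand: tacttgggacCCCAGTgcctcgttga
INPP5D, chr2:234115876-234115901, plus strand: cattaagaagCCCAGTgccctcctgg

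This 6-base match is common, since 43.9% of 12092 tested genes with a 3′UTR held it. *PIK3R1*, which went the other way, has 19 annotated transcripts with a 3′UTR. It held the longest form in 2 of them and a 7-base form in 10, and gene counts do not show which are expressed.

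PIK3R1, chr5:67593391-67593418, plus strand: acactagcctACCCAGTAtatgcacagc
PIK3R1, chr5:67596267-67596293, plus strand: agtttttcccACCCAGTgtagcatcct

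The 8-base form was present in 2.88% of the genes and this 7-base form, which lacks the last letter, in 14.2%. *INPP4A* also held a 7-base match, *PIK3CA* a 6-base match, and the 3′UTRs of *INPPL1*, *INPP4B*, *PIK3CB*, *PIK3R2* and *PIK3R3* none of these letters. For the complement, searched in the same way as ATATAGGA, the best match had 7 bases in *PIK3CA* and *PIK3CB* and 6 bases in *INPP4A*, *INPP4B* and *PIK3R3*, while *INPP5D* held none. The 6-base form was present in 27.3% of the genes and the 7-base forms in 9.33% and 11%. The complement is the strand that pairs with the targeted *MIR205HG*, over all 21 bases, and no other tested gene held a run as long, whereas *MIR205HG* pairs with the listed strand over 8 bases at most. Over the whole of its transcripts, the longest run of *INPP5D* complementary to the listed strand was 7 bases and to the complement 8 bases. Runs at least as long were present in 92.2% and 63.2% of 13850 tested genes.

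For miR-205-5p the letters were ATGAAGGA, shortened likewise. The 8-base match occurred once in *INPPL1* and once in *INPP4A*, and in 6.29% of all genes with a 3′UTR.

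INPPL1, chr11:71949832-71949859, plus strand: ccgtccggaaATGAAGGAatagcccgag
INPP4A, chr2:99205607-99205634, plus strand: ggacactttaATGAAGGAcgaagctctc

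*INPP5D* and *PIK3R2* held no match to the miR-205-5p seed, and the other 5 members a 6-base match, a form present in 44.3% of genes. Mature miR-205 was not measured in these poly(A) libraries. A seed match describes the letters only, and whether any of them is bound was not tested.

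*INPP5D* (ENSG00000168918, chr2:233924677-234116549 on GRCh37) encodes SHIP1. It stood at 57.2, 59.7 and 61.3 CPM in Scramble 1, 2 and 3 and at 11.9, 10.7 and 10.4 CPM in LEADR-KD 1, 2 and 3. The groups were far apart, and within each the libraries differed little. These are 971, 1163 and 1027 raw counts against 190, 194 and 183. The mean fell from 59.4 ± 2.08 to 11.0 ± 0.814 CPM, a drop of 81.5% and a log2 fold change of -2.44 (SE 0.11). Of the 14178 genes compared, 16 had a lower log2 fold change. In bulk RNA, fewer cells with the transcript and less of it per cell cannot be told apart.

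The nearest genes on either side of *INPP5D* that were high enough to test did not share the size of its change. *ATG16L1*, an autophagy gene that starts 2148 bases after it, had 48.3 CPM in Scramble and 54.3 CPM in LEADR-KD (log2 fold change 0.17, edgeR adjusted p = 0.302). *NGEF*, which encodes a guanine nucleotide exchange factor and lies 46695 bases before it, fell from 3.32 to 1.81 CPM (log2 fold change -0.88, edgeR adjusted p = 0.0411). The only gene annotated within *INPP5D* in the deposited table, *RN7SL32P*, had 0 counts.

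Genes whose profile over the 6 libraries was most like that of *INPP5D* were sought by the root mean square difference of mean-centred log2 CPM. The closest was *NOTCH2*, a Notch receptor, at 0.0988, and the next were *TPRXL* at 0.116, *ATRAID* and *SLC38A4* at 0.170, and *KCTD20* at 0.172. Their log2 fold changes lay between -2.12 and -2.71, as the measure of likeness requires.

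*INPPL1* (ENSG00000165458, chr11:71934745-71950149) encodes SHIP2, the other SHIP enzyme. Its levels were 131, 115 and 129 CPM in Scramble and 116, 152 and 133 CPM in LEADR-KD, and the groups overlapped. The log2 fold change was 0.10 (SE 0.10, 95% interval -0.13 to 0.33, edgeR adjusted p = 0.553). Thus the interval holds no fall of more than 0.13 on the log2 scale.

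Levels of different genes can be set side by side only per length. In FPKM, *INPP5D* had 8.40 ± 0.289 in Scramble and 1.57 ± 0.121 in LEADR-KD, and *INPPL1* 19.0 ± 1.33 and 20.4 ± 2.72. *INPP5D* therefore made up 28.9, 32.6 and 30.8% of the summed FPKM of both SHIP genes in Scramble and 8.76, 6.14 and 6.78% in LEADR-KD. The sum itself was 27.4 ± 1.26 FPKM in Scramble and 22.0 ± 2.63 FPKM in LEADR-KD. Most SHIP RNA in these cells thus came from *INPPL1*, in either group.

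**Figure D1:**
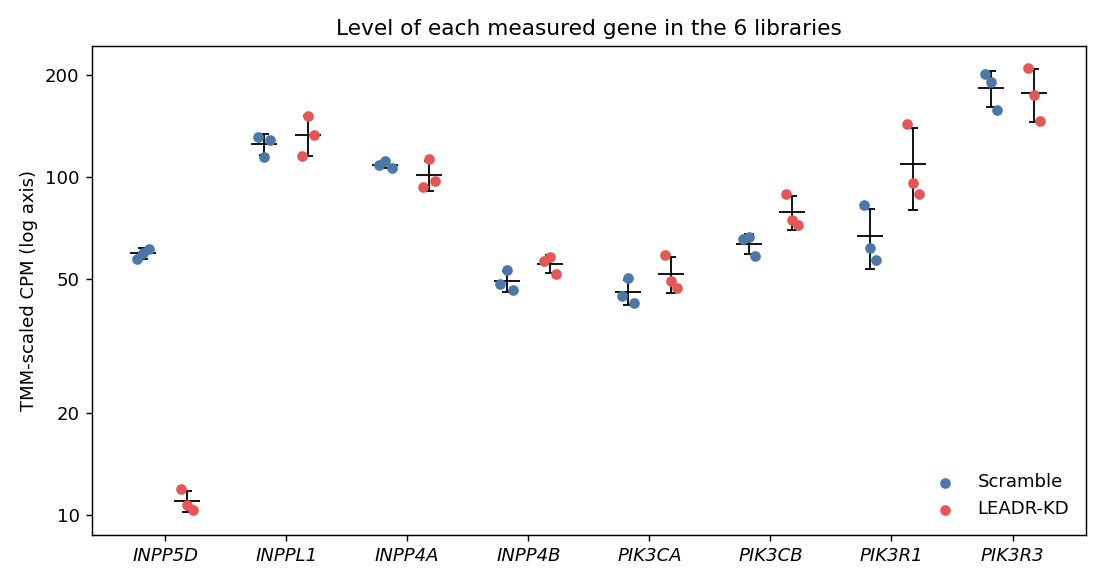
Level of the 8 measured genes in each library, in TMM-scaled CPM on a log axis. Points are libraries (blue Scramble, red LEADR-KD), and bars give the mean ± SD of 3. The *INPP5D* points lie at 57.2 to 61.3 CPM in Scramble and at 10.4 to 11.9 CPM in LEADR-KD, and those of *PIK3R1* and *PIK3CB* also separate, upwards.

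The 4-phosphatases act on PI(3,4)P2, the product of the SHIP enzymes. *INPP4A* (ENSG00000040933, chr2:99061317-99210853) had 108, 112 and 107 CPM in Scramble and 93.3, 113 and 97.2 CPM in LEADR-KD, with overlap between the groups. *INPP4B* (ENSG00000109452, chr4:142944313-143768585) averaged 49.2 ± 3.57 CPM in Scramble and 55.3 ± 3.41 CPM in LEADR-KD, also with overlap. Neither passed the test: the log2 fold changes were -0.11 (SE 0.09, 95% interval -0.30 to 0.09, edgeR adjusted p = 0.439) and 0.17 (SE 0.10, -0.04 to 0.38, edgeR adjusted p = 0.234). *INPP4B* made up 29.6 ± 1.02% of the summed FPKM of the pair in Scramble and 33.8 ± 1.93% in LEADR-KD. The groups did not overlap in this share, for which a two-sided exact permutation test gave p = 0.1, the smallest that 3 against 3 allows.

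Both catalytic subunits that most tissues express were measured. *PIK3CB* (ENSG00000051382, chr3:138372860-138553780) encodes p110β, and its levels were 65.4, 66.4 and 58.4 CPM in Scramble and 89.0, 74.8 and 72.0 CPM in LEADR-KD. The lowest LEADR-KD library lay above the highest Scramble library. It rose from 63.4 ± 4.31 to 78.6 ± 9.07 CPM, a log2 fold change of 0.31 (SE 0.10), with an edgeR adjusted p = 0.0455 that is close to the threshold of 0.05. The call was lost without any 1 library other than LEADR-KD 3 (adjusted p between 0.0699 and 0.151), and without both libraries numbered 1 (log2 fold change 0.23, adjusted p = 0.133).

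*PIK3CA* (ENSG00000121879, chr3:178865902-178957881), which encodes p110α, averaged 45.7 ± 4.01 CPM in Scramble and 51.6 ± 6.19 CPM in LEADR-KD. The groups overlapped, and the log2 fold change of 0.18 (SE 0.11, 95% interval -0.07 to 0.42) did not pass (edgeR adjusted p = 0.288). Per length, *PIK3CA* was 33.3 ± 1.16% of the summed FPKM of *PIK3CA* and *PIK3CB* in Scramble and 31.3 ± 0.167% in LEADR-KD (two-sided exact permutation test, p = 0.1, the smallest possible here). The leukocyte forms *PIK3CD* and *PIK3CG* were too low to test, with at most 8 counts in a library for *PIK3CD* and 0 for *PIK3CG*.

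*PIK3R1* (ENSG00000145675, chr5:67511548-67597649) encodes p85α and the shorter p55α and p50α, the regulatory subunits that stabilise p110 and hold it inactive until it is recruited. It had 82.5, 61.6 and 56.8 CPM in Scramble and 144, 96.0 and 89.1 CPM in LEADR-KD. The groups did not overlap, although Scramble 1 came close to the lowest LEADR-KD library. In each group the highest value was that of the library numbered 1, the library with the most mitochondrial counts, and the part of this in the result was not tested.

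*PIK3R1* rose from 67.0 ± 13.7 to 110 ± 29.6 CPM, a log2 fold change of 0.71 (SE 0.18, 95% interval 0.32 to 1.10, edgeR adjusted p = 0.0140). Without both libraries numbered 1 the log2 fold change was 0.64 (adjusted p = 0.000643), and without Scramble 2 it was 0.65 with the call lost (adjusted p = 0.0567). The other single libraries left out kept the call and gave 0.47 to 0.89, the lowest without LEADR-KD 1 (adjusted p = 0.0322). The gene table does not separate the transcripts of *PIK3R1*.

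*PIK3R3* (ENSG00000117461, chr1:46505812-46642160), which encodes p55γ, had 202, 191 and 158 CPM in Scramble and 210, 175 and 147 CPM in LEADR-KD. The groups overlapped throughout, and the log2 fold change was -0.05 (SE 0.13, 95% interval -0.33 to 0.23, edgeR adjusted p = 0.810). In the deposited table this gene overlaps *TSPAN1* on the other strand. *TSPAN1* itself went from 212 to 175 CPM (log2 fold change -0.28, edgeR adjusted p = 0.0407). Whether the counting used strand is not given, so reads from the shared stretch may not have been told apart.

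*PIK3R2*, which encodes p85β, cannot be read from this table. Its row ENSG00000105647 (chr19:18263928-18281350) held 2, 0 and 1 counts in Scramble and 0, 2 and 0 in LEADR-KD. The second row of the same name, ENSG00000268173 (chr19:18263968-18288927), held 0 in every library. In GENCODE v44lift37 the second gene shares 76.4% of the exon bases of *PIK3R2* and 100% of its coding bases, and it runs on into *IFI30*, which had 4 counts over the 6 libraries. How far this overlap lowered the counts was not tested.

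Among the p85 family as far as it was counted, *PIK3R1* took 22.5, 18.7 and 20.3% of the summed FPKM in Scramble and 32.7, 28.0 and 30.1% in LEADR-KD. The shares did not overlap between the groups, and their means were 20.5 ± 1.91% and 30.3 ± 2.35%. The exact permutation test gave p = 0.1, again the smallest possible. The shares leave out *PIK3R2* in effect, for the reason above.

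**Figure D2:**
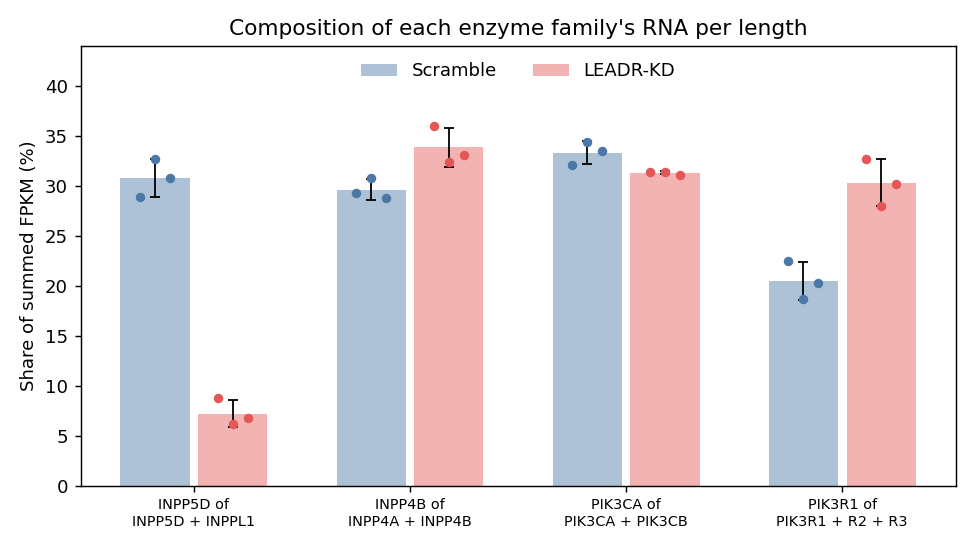
Share of 1 gene in the summed FPKM of its family, in percent. Bars are means of 3 libraries with SD and points are libraries (blue Scramble, red LEADR-KD). *INPP5D* went from 30.8 to 7.22% of SHIP RNA and *PIK3R1* from 20.5 to 30.3% of regulatory subunit RNA, while the other shares moved by less than 5 percentage points.

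In the order of levels per length, Scramble cells had *PIK3R3* highest at 23.7 ± 2.96 FPKM. *INPPL1*, *PIK3CB* at 9.61 ± 0.668, *INPP5D*, *INPP4A* at 8.16 ± 0.201, *PIK3R1* at 6.14 ± 1.26, *PIK3CA* at 4.81 ± 0.430 and *INPP4B* at 3.44 ± 0.256 followed. Of these neighbours, *INPP5D* and *INPP4A* overlapped between libraries, as did *PIK3R1* and *PIK3CA*. In LEADR-KD cells *INPP5D* came last of the 8, below *INPP4B* at 3.90 ± 0.237 FPKM, and without overlap. *PIK3R1* at 10.1 ± 2.78 FPKM stood above *INPP4A* at 7.64 ± 0.750, and its libraries overlapped those of both *INPP4A* and *PIK3CB* at 12.0 ± 1.42.

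Counted together, 7 members other than *INPP5D* were tested, of which 0 were called lower, 2 were called higher and 5 were not called. Over all genes tested, 12.1% were called lower and 12.2% higher, and 39.8% had no overlap between the groups. With library totals in place of TMM the calls were 1553 lower and 1085 higher, beside 1719 and 1736. The median log2 fold change of the 7 was 0.17 and that of all genes -0.01. At an unadjusted p under 0.05 the count of members lower was also 0, and DESeq2 and limma called 0 of them lower too. These rules share the same libraries, and 7 genes are too few to set 0 apart from the 12.1% of all genes.

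**Figure D3:**
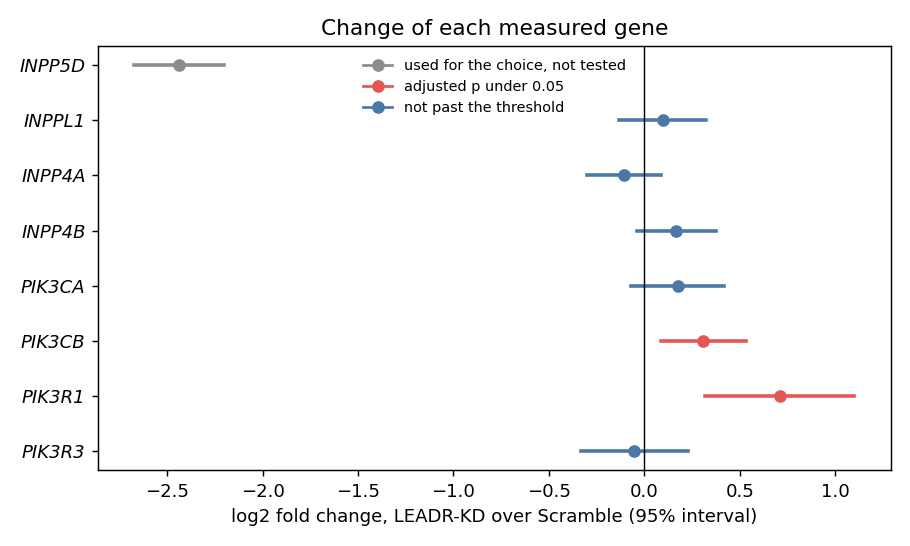
Log2 fold change of LEADR-KD over Scramble for the 8 measured genes, with its 95% interval. *INPP5D* (grey, not tested) lies at -2.44, *PIK3CB* and *PIK3R1* (red) passed the test at 0.31 and 0.71, and the intervals of the other 5 (blue) include 0.

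The wider pathway was read from lists of 95 further genes, of which 79 were tested. Of these, 13 were called lower, 12 higher and 54 neither, or 16.5% and 15.2% beside 12.1% and 12.2% of all genes. Their median log2 fold change was 0.07. Calls in both directions stood in 4 lists, class II and III PI3K, the 3-phosphatases, the PI and PIP kinases and the adaptors and readers.

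Among 9 other 5-phosphatases tested, 3 were called higher and 0 lower, or 33.3% and 0% beside 12.2% and 12.1% of all genes. *SYNJ1*, the synaptojanin that strips PI(4,5)P2 from endocytic vesicles, rose from 10.1 ± 0.978 to 25.7 ± 2.96 CPM (log2 fold change 1.34, edgeR adjusted p = 4.67e-05). *INPP5A*, which acts on soluble inositol phosphates, rose from 16.8 ± 1.01 to 32.8 ± 3.78 CPM (0.96, adjusted p = 0.000224), and *FIG4*, which acts on PI(3,5)P2, by a log2 fold change of 0.45 (adjusted p = 0.0179). *FIG4* lost its call in 5 of 16 settings, with library totals and in each fit that left out Scramble 1 or 3, or LEADR-KD 2 or 3 (adjusted p up to 0.0688). The median of the list was 0.21. At an unadjusted p under 0.05, and by DESeq2 and limma on log2(FPKM + 1), 0 of these phosphatases were lower as well. Over all genes DESeq2 called 1607 of 14189 lower and this limma fit 1490 of 14178. The rules share the same libraries, and 9 genes are too few to set 0 apart from such shares.

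Of 4 further 4-phosphatases, *TMEM55A* and *INPP5F* were called higher, with log2 fold changes of 0.63 and 0.53. That is 50% higher and 0% lower, beside 12.2% and 12.1% of all genes. The call of *TMEM55A* was lost in 8 of 16 alternative settings, among them each single library left out (adjusted p up to 0.0980), and that of *INPP5F* in 3, without Scramble 3, LEADR-KD 2 or LEADR-KD 3 (up to 0.0593). Among 10 tested 3-phosphatases, the myotubularins *MTMR3* and *MTMR2* were called lower (-0.41 and -0.36) and *MTMR6* higher (0.56). This list thus had 20% lower and 10% higher, beside the same shares of all genes. *MTMR2* lost its call in 6 of 16 settings, with both limma fits and where Scramble 1 or 2, or LEADR-KD 2 or 3, was left out (adjusted p up to 0.147), and *MTMR3* without LEADR-KD 3 (0.0502). Myotubularins act mainly on PI3P and PI(3,5)P2.

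The kinases that act upstream and beside PI3K were split. The PI5P 4-kinases *PIP4K2C* and *PIP4K2B* fell, *PIP4K2C* from 97.9 ± 3.83 to 54.5 ± 5.79 CPM (log2 fold change -0.84, edgeR adjusted p = 9.74e-05) and *PIP4K2B* from 98.2 ± 4.27 to 59.7 ± 1.08 CPM (-0.72, adjusted p = 9.13e-05). *PIP5K1C*, which makes PI(4,5)P2, was also called lower (-0.30), but lost the call in 8 of 16 settings, among them library totals and each single library left out other than Scramble 2 (adjusted p up to 0.110). The PI 4-kinases *PI4K2B* and *PI4KA* rose, by log2 fold changes of 0.82 and 0.46. Of the 11 kinases tested, 6 were not called. The shares called were 27.3% lower and 18.2% higher, beside 12.1% and 12.2% of all genes.

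Of 6 tested genes of class II and III PI3K, *BECN1*, a subunit of the autophagic VPS34 complex, fell from 56.7 ± 5.40 to 29.1 ± 0.926 CPM (log2 fold change -0.96, edgeR adjusted p = 6.12e-05). *PIK3C2A*, a class II catalytic subunit, rose by 0.36 on the log2 scale (adjusted p = 0.0118, and 0.0521 without Scramble 2). The other 4, the VPS34 gene *PIK3C3* among them (log2 fold change 0.01, adjusted p = 0.971), were not called. The share called was 16.7% in each direction, beside 12.1% lower and 12.2% higher of all genes.

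Among 18 tested adaptors and readers of PI(3,4,5)P3, 5 were called lower and 3 higher. The shares were 27.8% and 16.7%, beside 12.1% and 12.2% of all genes. *CYTH3*, an ARF exchange factor that binds this lipid, went from 23.6 ± 3.06 to 10.4 ± 2.08 CPM (log2 fold change -1.18), and *GAB2*, a docking protein for p85, fell by 0.79 on the log2 scale. Of the AKT kinases, *AKT1* went from 263 ± 5.61 to 203 ± 6.92 CPM (-0.38, edgeR adjusted p = 0.00361) and *AKT2* from 255 ± 14.3 to 205 ± 1.46 CPM (-0.31, adjusted p = 0.0120, and 0.0599 without Scramble 2). Of the phosphatases that act on AKT, *PHLPP1* was called lower (-0.32) and *PHLPP2* higher (0.62). *PHLPP1* lost its call in 8 of 16 settings, among them library totals and each single library left out other than Scramble 1 (adjusted p up to 0.104). *SWAP70* was also called higher (0.38).

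Of the 7 tested partners of the SHIP enzymes edgeR called 0, beside 12.1% lower and 12.2% higher of all genes. An unadjusted p under 0.05 was reached by 3, and the share of all genes at that cutoff is not given here. DESeq2 called 1 lower (*PTPN6*, adjusted p = 0.0482) and limma on log2(FPKM + 1) 0. *GRB2* had a log2 fold change of 0.07 (adjusted p = 0.531), *SHC1* -0.13 (adjusted p = 0.290) and the phosphatase *PTPN6* -0.39 (adjusted p = 0.0638). Genes that FOXO factors induce when AKT is inactive were also listed. Of 14 tested, *CCNG2* fell from 73.8 ± 11.0 to 23.2 ± 2.97 CPM (log2 fold change -1.67, edgeR adjusted p = 8.32e-06) and *KLHL24* by 0.63 on the log2 scale (adjusted p = 0.0190), 0 were called higher and 12 were not called. The share called lower, 14.3%, was near the 12.1% of all genes, and 12.2% of all genes were called higher. DESeq2, limma on log2(FPKM + 1) and an unadjusted p under 0.05 also gave 2 lower and 0 higher. *KLHL24* lost its call with limma on log2(FPKM + 0.1) and without Scramble 1, Scramble 2 or LEADR-KD 3 (adjusted p up to 0.0573). The median of the 14 was -0.12. Protein levels, phosphorylation and lipids were not measured in these libraries.

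**Figure D4:**
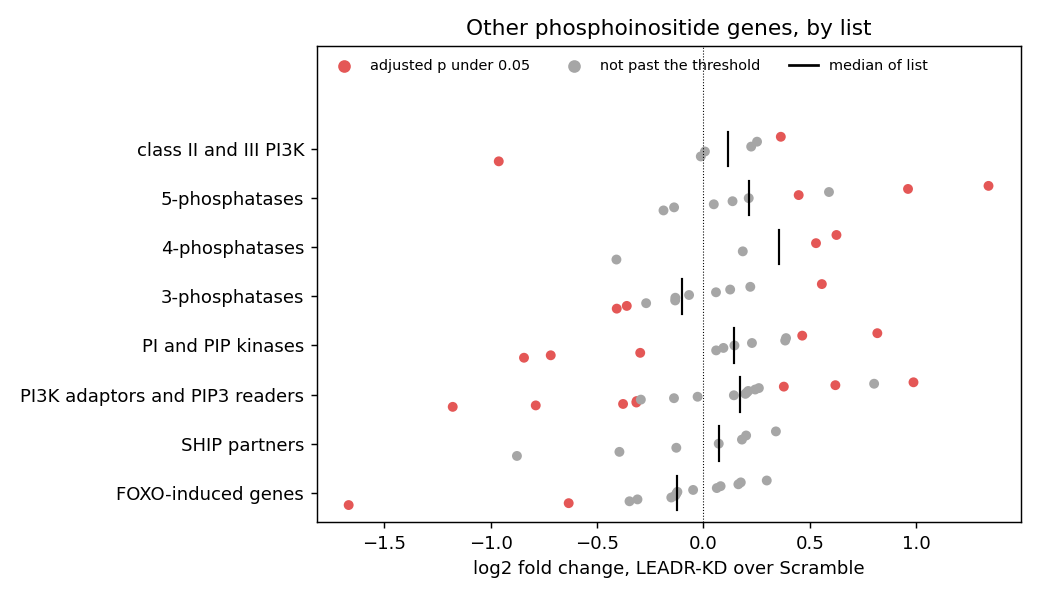
Log2 fold change of the 79 tested pathway genes that are not among the 9 members, by list. Each point is a gene (red for an adjusted p under 0.05) and each vertical bar the list's median, which lies between -0.12 for FOXO-induced genes and 0.36 for the 4-phosphatases.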

How the data were processed

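Poly(A) RNA of RT4 cells was compared between 3 Scramble and 3 LEADR-KD libraries, assigned from the labels. The authors deposited raw counts per gene, and FPKM values that equal each count divided by gene length and by 1 constant per library. The submitters' processing notes name HISAT2 2.0.5, featureCounts 1.5.0-p3 and DESeq2 1.20.0 on hg19, while the paper's methods name Salmon. No source used here gives the strand setting. Another deposited table holds the authors' own fold changes and p-values and was not used.

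Counts were scaled by TMM, filtered by filterByExpr (minimum count 10) and compared by the quasi-likelihood test of edgeR 4.0.16 in R 4.3.3 over 14178 genes. A call is a Benjamini-Hochberg adjusted p under 0.05 over all of them. The standard error is the log2 fold change divided by the square root of F, and 95% intervals use the test's degrees of freedom. Shares of FPKM were compared by two-sided exact permutation. The steps were tested on simulated data. The members and the gene lists were chosen with earlier results of these data known. All 9 members, the called genes of each list (values for up to 4 per direction), the nearest tested neighbours of *INPP5D* and the 5 genes most like it were named. *TSPAN1*, *IFI30* and *RN7SL32P* overlap a member or its second row, *AKT2* was added as a relative, and *PIK3C3*, *GRB2*, *SHC1* and *PTPN6* were named after their values were seen. A few list members are counted but not reported here. Alternatives used DESeq2 1.42.0, limma 3.58.1, other scalings and filters, a replicate block and left-out libraries.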

Additional observations from a re-analysis of the deposited data

How the results depend on the processing

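*INPP5D* stayed below -1.8 on the log2 scale in every setting tried and was moved only by limma on log2(FPKM + 1), to -1.87, where the pseudocount compresses low values by construction. Leaving out 1 library gave -2.49 to -2.39. The members called higher numbered 2 and became 1 with library totals in place of TMM, with limma on log2(FPKM + 1) and log2(FPKM + 0.1), and without both libraries numbered 1, a setting chosen after seeing the data. In these *PIK3CB* lost its call. Leaving out 1 library gave 0 to 2, with 0 without Scramble 2. The pathway genes called lower numbered 8 to 11 and those called higher 9 to 12 when 1 library was left out, and 8 were lower without LEADR-KD 3. Fewer libraries enter those fits, and otherwise the cause was not tested.

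Over all genes, 1719 were called lower and 1736 higher, against 1553 and 1085 with library totals and 1142 and 1188 without LEADR-KD 2. Signs that turned belonged to uncalled members. Leaving out 1 library gave log2 fold changes of -0.0056 (without LEADR-KD 2) to 0.192 for *INPPL1* and of -0.1889 to 0.069 for *PIK3R3*, which was positive without LEADR-KD 3 and, at 0.0228, without Scramble 1. A replicate block kept 2 members higher and 0 lower and gave 19 pathway genes higher and 16 lower. With it the edgeR adjusted p was 0.00546 for *PIK3CB* and 1.28e-06 for *PIK3R1*. Over all genes the block gave 2365 called lower and 2489 higher. The labels share the numbers 1 to 3 between groups, and the deviations of same-numbered libraries correlated at 0.22, 0.0032 and 0.25. For numbers 1 and 3 this was the highest value of either library. Scramble 1 with LEADR-KD 3 gave -0.18, and Scramble 3 with LEADR-KD 1 gave -0.28. Scramble 2 reached 0.0267 with LEADR-KD 1, and LEADR-KD 2 reached 0.0727 with Scramble 3. Whether the numbers mark pairs could not be settled from these values, so the main fit does not use them. Without the replicate block, and with 3 libraries per group, the call of *PIK3CB* (log2 fold change 0.31, SE 0.10) sits close to the threshold. This depends on the spread of the gene as well as on its change. *AKT2*, at -0.31 with an SE of 0.08, had an edgeR adjusted p = 0.0120.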

Other observations

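Over all 12092 tested genes with a 3′UTR, calls varied with the best match to the seed of the listed siRNA strand. Of the genes that held ACCCAGTA, 33.9% were called lower and 8.05% higher. Of those whose best match was its inner 6 bases, the form *INPP5D* holds, 14.8% were called lower and 12.9% higher, and of those with no match 8.38% and 15.6%. Longer 3′UTRs hold more matches, and the length was not held equal. For the complement, the strand that pairs with *MIR205HG* and whose 8-base form is ATATAGGA, 19.1% of the genes that held it were called lower and 15.5% higher. For miR-205-5p and ATGAAGGA the values were 14.2% and 16.6%. *NOTCH2*, *SLC38A4* and *KCTD20*, whose profiles were among the most like that of *INPP5D*, held the 8-base match to the listed strand. *ATRAID* held the 6-base one, and *TPRXL* had no 3′UTR in the search. These genes were chosen for their likeness to *INPP5D*, so all of them fell. How often other genes with falls as large hold these matches was not tested. *PIK3R1* held the 8-base match in 2 of its 19 transcripts with a 3′UTR and rose. Whether those 2 are expressed here is not known.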
